A study of Drosophila melanogaster with 20 samples.

Results

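The response of the pupal wing to activated Thickveins was read from 10 of the 20 arrays of this series, 5 of pupal Tkv wings and 5 of pupal control wings, chosen by the sample titles and not by any measured value. Each array carried total RNA of 10 dissected wings of Drosophila melanogaster, taken 24 h after pupa formation from animals staged as white prepupae. Pupal Tkv wings expressed a UAS transgene of activated Thickveins (Tkv) under Gal4, and pupal controls were of a matched strain that lacked the UAS element. All animals, controls included, grew at 18 °C and spent the last 10 h before dissection at 28 °C, where Gal4 drives the transgene. The 10 arrays of larval control and larval Tkv wings, from wandering larvae, served to estimate the spread and to compare the response between stages. The labels do not name the Gal4 driver, and so do not say which cells of the wing carried active Tkv. Any other difference between the strains enters the comparison too and cannot be told apart from the transgene.

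Tkv is a type I receptor of the BMP branch of TGF-beta signalling. With the type II receptor Punt it binds the ligand Decapentaplegic (Dpp) and phosphorylates the transcription factor Mad, which enters the nucleus with Medea, switches on targets directly and lifts repression by Brinker. In the larval wing disc graded Dpp signalling guides growth and patterning, whereas in the pupal wing Dpp acts in the forming veins while the epithelium ends its growth and starts to differentiate. An activated receptor signals without ligand, so cells outside the normal range of Dpp can respond.

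The arrays read 15473 transcripts, named in the files by FlyBase transcript ID without gene symbols. RefSeq's gene table for the Release 6 assembly gave a single symbol for 17 of them, and none of the 489 transcripts that responded was among these 17. The responding transcripts are therefore described by level, size, slide and stage, with the leading ones given by ID. The transcript of tkv itself was not identified, and the labels were not checked against the level of the transgene. Defining markers of wing cells and of other cell types could not be read either: of the 14 gene and cell type lists, 1 had any member with a symbol. Each slide carried 1 array of every group and followed the replicate number, which allowed a Tkv minus control difference to be taken on each of 5 slides. Replicate 2 of the pupal Tkv wings stood apart, with a deposited median of 9.19 (log2 intensity) against 9.41 to 9.48 in the other 4. Its deviation from the group means had an SD of 0.46 over transcripts, against 0.32 to 0.36 in the other 4. Among pupal controls, replicate 4 had the largest such SD, 0.42 against 0.28 to 0.34 in the other 4. It also had the lowest deposited median of its group, 9.30.

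In pupal wings with activated Tkv, 250 transcripts were higher (1.62% of those tested) and 239 lower (1.54%) than in pupal controls, 3.16% together (limma, Benjamini-Hochberg adjusted p under 0.05). Rises and falls were about equal in number after quantile normalization, with 267 rises and 198 falls under median centring and 274 and 217 without pupal Tkv replicate 2. The median log2 difference was 0.92 among the higher transcripts, with quartiles of 0.62 and 1.34, and -0.86 among the lower ones, with quartiles of -1.22 and -0.65. At least 2-fold differences were seen for 117 rises (0.756% of all transcripts) and 94 falls (0.608%), 1.36% together. The largest differences lay mainly among the rises: 9 transcripts were higher by at least 8-fold and 2 were lower by that much. The smallest difference to pass was 0.31 on the log2 scale for a rise, and falls passed from 0.34 in size. A further 89 transcripts differed by at least 2-fold in the means without passing, and 13 of those were bright on all 10 pupal arrays. In a bulk sample, fewer cells of a type and less RNA per cell cannot be told apart, and this applies to every difference given here. The limma fit took its spread from all 20 arrays. With the 10 pupal arrays alone 289 transcripts passed, 267 of them shared with the 489, and without the arrays of replicate 3 or replicate 5 the counts were 266 and 306. Without replicate 2 of the pupal Tkv wings, the array that stood apart, 491 passed, of which 400 were among the 489.

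**Figure D1:**
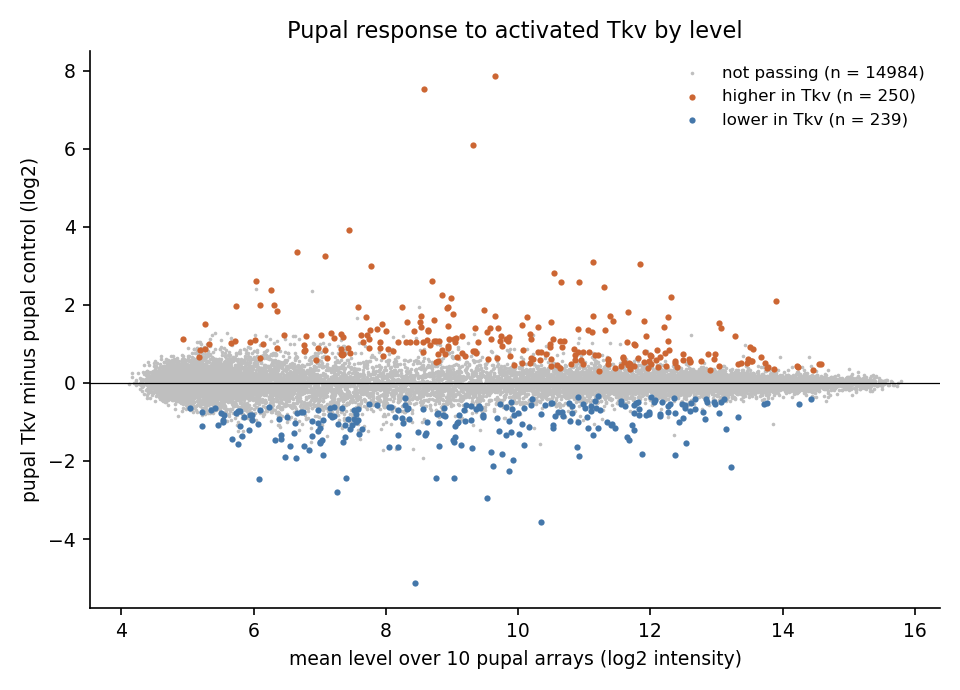
Each point is 1 of 15473 transcripts, with its mean level over 10 pupal arrays (log2 intensity) on the horizontal axis and the pupal Tkv minus pupal control difference (log2) on the vertical axis. The 250 transcripts that passed as higher and the 239 that passed as lower are coloured, and 2 rises exceed 7 on the log2 scale.

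The calls were concentrated at intermediate levels. When all transcripts were ordered by mean pupal level and cut into 5 equal parts, 0.323% passed in part 1, the dimmest, 2.97% in part 2, 7.3% in part 3 (log2 7.38 to 10.96), 3.81% in part 4 and 1.39% in part 5, the brightest. In part 2 falls outnumbered rises, 59 against 33, whereas in part 3 there were 121 rises and 105 falls. The level is the mean of both groups, so a transcript that is dim in one group and bright in the other lies near the middle. Precision also moved with level: the median standard error of the difference was 0.22 in part 1, 0.27 in part 2, 0.20 in part 3 and 0.11 in part 5. The part of this precision in the shares was not tested.

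**Figure D2:**
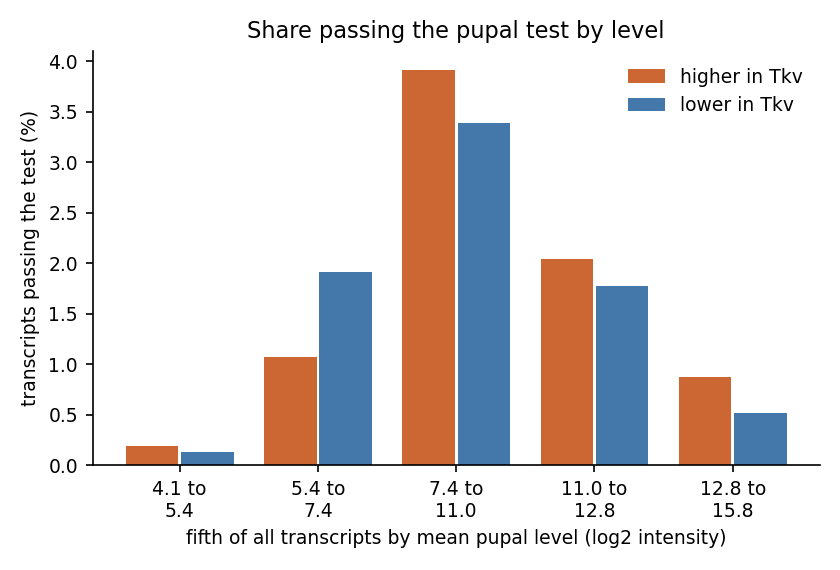
Bars give the percentage of transcripts that passed the pupal test as higher (orange) or lower (blue) in Tkv wings, in each of 5 equal parts of all transcripts by mean pupal level (log2 intensity, horizontal axis). Part 3, in the middle, holds the highest share in both directions, 3.91% and 3.39%.

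The distribution of levels had 2 modes, one dim and one bright, with the boundary at a log2 intensity of 8.64, and the response was sorted by it. Above the boundary on all 10 pupal arrays lay 137 of the 250 rises and 112 of the 239 falls. Among these the median log2 differences were 0.70 and -0.71, and 43 rises and 27 falls reached 2-fold. Gains from the dim to the bright mode, complete on all 10 arrays, were seen for 20 transcripts, and 8 transcripts went from bright to dim. Another 43 rises and 73 falls stayed dim in both groups, with median log2 differences of 1.02 and -0.96. These are medians of calls alone, and where the standard error is larger a transcript needs a larger difference to pass. The medians therefore do not show that dim transcripts moved more than bright ones. Background correction can compress differences in the dim mode, and whether it did was not tested. The remaining 50 rises and 46 falls had arrays on both sides of the boundary within a group. Of the transcripts bright throughout 3.19% passed, and of those dim throughout 1.78%. The share was 10.9% among transcripts with arrays on both sides of the boundary, a class that a difference between the groups itself helps to fill, so this share is a description only.

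The 5 slides each repeated the comparison. Of the 489 calls, 455 differed in the same direction on all 5 slides and the other 34 on 4 slides, whereas 13.2% of all transcripts had 1 sign on all 5 slides. These shares describe the calls and add no separate evidence, since the same arrays made the calls. Among the rises the median difference was 0.86, 0.84, 0.96, 0.99 and 0.91 on slides 1 to 5. Among the falls it was -0.88, -0.90, -0.86, -0.69 and -0.86. Slide 4 had the weakest falls, and 229 of the 239 kept their sign there, the lowest number of the 5 slides. Slide 2 had the widest differences over all transcripts, with a median size of 0.35 against 0.23 to 0.29 on the others. The 5 Tkv and 5 control values did not overlap for 374 of the 489 calls, 203 rises and 171 falls. Over all 15473 transcripts they did not overlap for 4.46%, with Tkv higher in 2.24% and lower in 2.22%. The calls made in all 38 fits at the same threshold, the reported one included, numbered 180, of which 108 were rises and 72 falls, and 140 of them reached 2-fold.

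The largest difference was the rise of FBtr0088591. Its log2 intensity was 6.05, 6.29, 5.62, 5.10 and 5.57 in pupal controls 1 to 5 and 13.44, 13.39, 13.61, 13.83 and 13.64 in pupal Tkv wings 1 to 5. It went from the dim to the bright mode on every slide, a 232-fold difference of 7.86 ± 0.40 (log2, SE, limma adjusted p = 1.70e-10). Controls lay within the dim mode, so the fold may be too small, which was not tested.

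FBtr0073511 behaved alike. It read 4.25, 4.61, 5.26, 4.73 and 5.20 in controls and 12.29, 12.09, 12.43, 12.87 and 12.00 in Tkv wings, a difference of 7.53 ± 0.40 (limma adjusted p = 2.34e-10). In larval controls the means of both transcripts were also dim, at 6.65 ± 1.25 and 5.47 ± 1.15 (log2, mean ± SD, n = 5). Larval control replicate 4 was the highest for both, at 8.79 for FBtr0088591, above the boundary to the bright mode, and 7.18 for FBtr0073511. That array widened both SDs and also entered the spread behind the standard errors. Both transcripts were bright in larval Tkv wings, at 13.52 ± 0.26 and 12.21 ± 0.44. Their level with the transgene was thus nearly the same at both stages, and neither passed the test of a difference between the stages (limma adjusted p = 0.753 and 0.844).

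The largest fall was that of FBtr0088213, which read 11.11, 10.97, 10.88, 10.84 and 11.22 in pupal controls and 5.81, 5.13, 6.10, 6.21 and 6.19 in Tkv wings. All 5 Tkv values were dim and all 5 control values bright, a difference of -5.11 ± 0.22 (log2, SE, limma adjusted p = 1.18e-11). Its larval difference was smaller, at -3.01 ± 0.22, from a lower control level of 9.57 ± 0.32 (mean ± SD, n = 5), and the stages differed by -2.11 ± 0.31 (limma adjusted p = 0.000859). Tkv wings were dim at both stages, so the control level limits how far each fall could be measured, and the stage difference takes in the 1.43 between the controls.

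FBtr0078413 was the next largest fall, from 13.17, 12.68, 11.71, 11.29 and 11.77 in controls to 8.74, 8.13, 8.52, 9.19 and 8.20 in Tkv wings. Controls 1 and 2 were the highest of their group, and the groups did not overlap. The difference was -3.57 ± 0.32 (limma adjusted p = 3.53e-07), beside -2.41 ± 0.32 in larval wings, where the control level was close to it (12.12 ± 0.57, mean ± SD, n = 5, against 12.12 ± 0.77 in pupal controls).

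Since differences that reach into the dim mode may be compressed, the leading transcripts were also taken among those bright on all 10 pupal arrays. The largest rise there was that of FBtr0071697, from 10.39, 9.40, 9.06, 9.46 and 9.62 in controls to 12.82, 12.45, 12.65, 12.66 and 12.78 in Tkv wings. The Tkv values lay close together, while control 1 was the highest of a wider group. The difference was 3.09 ± 0.28 (log2, SE, limma adjusted p = 4.21e-07), smaller than the 5.73 ± 0.28 of larval wings, where all 5 controls lay in the dim mode, at 7.33 ± 0.72 (mean ± SD, n = 5), and the stages differed by -2.64 ± 0.39 (limma adjusted p = 0.00103).

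FBtr0070805 rose by nearly as much in pupal wings, from 10.22, 10.40, 10.32, 10.55 and 10.11 to 13.64, 13.11, 13.66, 13.56 and 12.91. The difference was 3.05 ± 0.15 (limma adjusted p = 1.11e-10), an 8.30-fold rise. In larval wings, from a similar control level of 10.12 ± 0.17 (mean ± SD, n = 5), it differed by 0.49 ± 0.15 and did not pass (limma adjusted p = 0.151). The difference between stages, 2.56 ± 0.21, did pass (limma adjusted p = 6.81e-07), and this comparison is free of the dim mode on every side.

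Among falls measured above the dim mode, FBtr0082286 led, from 14.45, 14.41, 14.34, 14.16 and 14.15 in controls to 12.39, 12.38, 12.65, 11.22 and 12.04 in Tkv wings. Tkv replicate 4 was the lowest, and all 5 lay below every control. The pupal difference of -2.17 ± 0.19 (limma adjusted p = 2.46e-07) was matched by -2.35 ± 0.19 in larvae, and the stages did not differ by the test (0.18 ± 0.26, limma adjusted p = 0.940).

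FBtr0082782 gave the contrary picture. It read 11.64, 11.64, 12.08, 11.92 and 11.99 in pupal controls and 10.09, 9.72, 9.53, 10.06 and 10.54 in Tkv wings, a difference of -1.87 ± 0.15 (limma adjusted p = 1.09e-07). Larval wings, at 13.13 ± 0.05 without and 12.98 ± 0.17 with the transgene (mean ± SD, n = 5), differed by -0.15 ± 0.15 (limma adjusted p = 0.837), and the stages differed by -1.72 ± 0.21 (limma adjusted p = 0.000160).

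**Figure D3:**
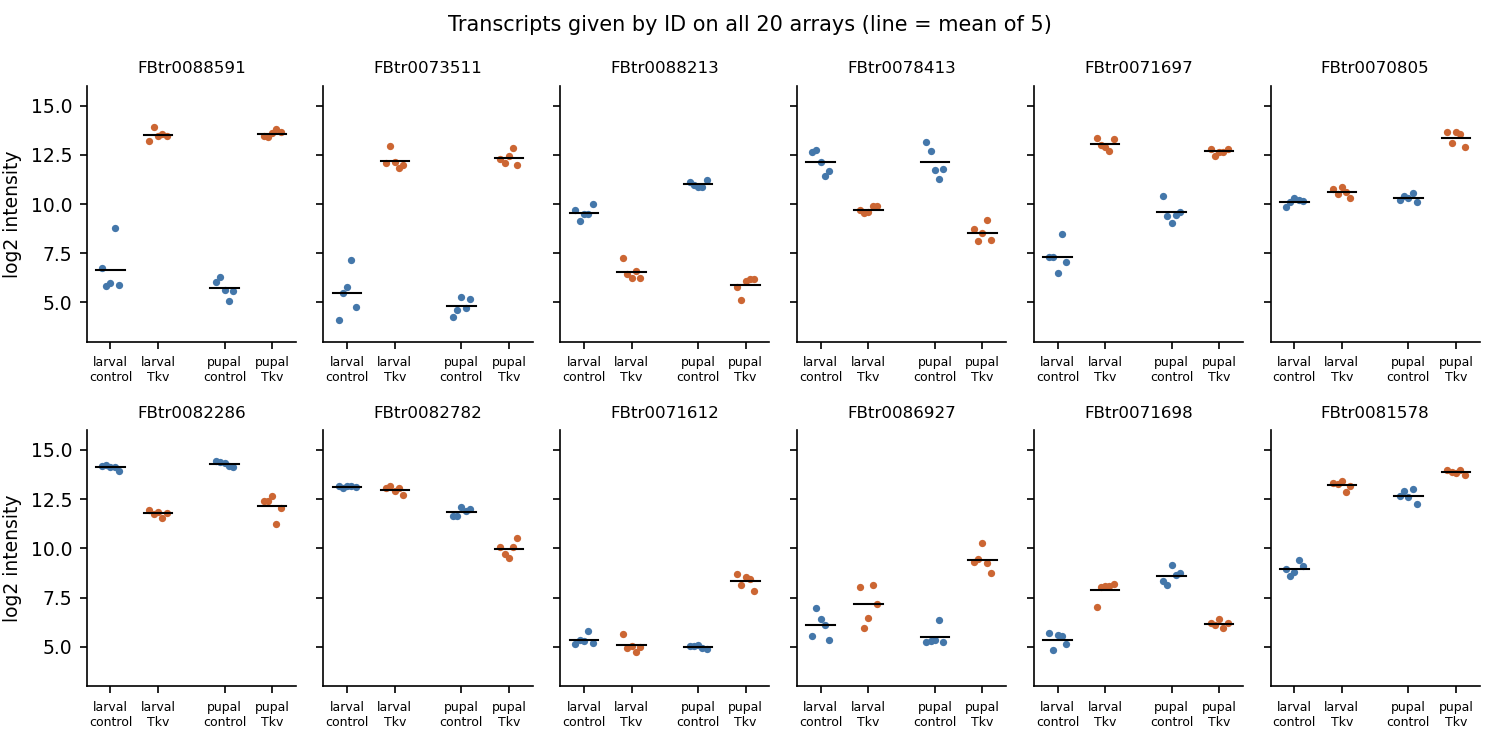
Points are log2 intensities on single arrays for the 12 transcripts given by ID, blue for control and orange for Tkv wings, with a line at the mean of 5. In all 12 the pupal groups do not overlap, and FBtr0070805, FBtr0082782, FBtr0071612 and FBtr0071698 show how the larval groups can sit close together or in the opposite order.

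To show where the pupal response differed from the larval one, the larval differences of the pupal calls were set beside the pupal ones. The 2 differences share no array, though they share slides. Both tests, however, took the spread of each transcript from the arrays of both stages. A transcript with a low spread is therefore favoured in both tests, and passes in both are not separate evidence. Of the 250 pupal rises 180 (72%) were also higher in larval Tkv wings, and of the 239 pupal falls 201 (84.1%) were also lower, against a same-sign share of 55.6% over all transcripts. The median larval differences were small, at 0.23 and -0.29. In the larval test, which 1.4% of all transcripts passed (0.73% as higher and 0.666% as lower), 45 of the pupal rises (18% of these and 39.8% of the larval rises) and 54 of the pupal falls (22.6% of these and 52.4% of the larval falls) passed in the same direction. That left 205 rises and 183 falls without a larval call. Among these, 49 and 22 passed the interaction test for a difference between the stages, while 156 and 161 did not, so for most pupal calls without a larval call a stage difference was not shown.

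The interaction test was passed by 0.679% of all transcripts and by 87 of the 489 pupal calls, 57 rises and 30 falls. The pupal difference was the larger in size for 54 and 24 of these. Pupal calls were chosen by their pupal difference, which also enters the interaction, so a larger pupal size among them is partly fixed by the choice. The larval sign was opposite for 28 rises and 17 falls, of which 2 falls also passed the larval test. The count over all transcripts was 105. It was 69 without replicate 3 of the larval controls and 69, 57, 48, 59 and 62 without all arrays of replicate 1, 2, 3, 4 and 5.

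**Figure D4:**
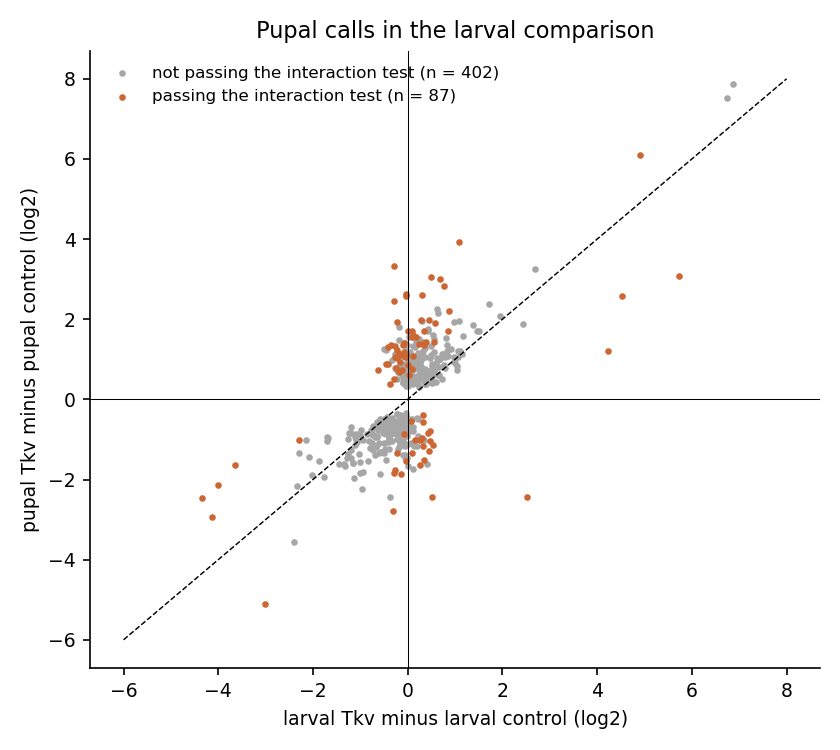
Each point is 1 of the 489 pupal calls, with the larval Tkv minus control difference (log2) on the horizontal axis and the pupal difference (log2) on the vertical axis. The 87 calls that passed the interaction test are orange, the other 402 grey, and the dashed line marks equal differences. Most points lie near a larval difference of 0.

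FBtr0071612 had the largest stage difference among rises that were larger in pupal than in larval wings. It read 5.03, 5.03, 5.09, 4.93 and 4.86 in pupal controls and 8.69, 8.14, 8.54, 8.45 and 7.81 in pupal Tkv wings, and larval wings lay at 5.36 ± 0.27 without and 5.07 ± 0.36 with the transgene (log2, mean ± SD, n = 5). All 5 pupal Tkv arrays lay above every array of the other groups. Only the highest of these pupal Tkv values passed the boundary to the bright mode, and all other arrays were dim. Differences in the dim mode may be compressed, which was not tested. The stages differed by 3.63 ± 0.25 (SE, limma adjusted p = 8.15e-08).

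FBtr0086927 was next in that direction, with 5.23, 5.27, 5.36, 6.35 and 5.23 in pupal controls and 9.28, 9.48, 10.27, 9.24 and 8.74 in pupal Tkv wings. Control 4 stood above the other 4, still well below every Tkv array. The pupal rise was 3.91 ± 0.40 (limma adjusted p = 3.46e-06), the larval difference 1.08 ± 0.40 (limma adjusted p = 0.304) and the stage difference 2.84 ± 0.57 (limma adjusted p = 0.0186). That last call was lost without all arrays of replicate 1, 2, 3 or 5, and its limma adjusted p was highest without replicate 3, at 0.253 for a difference of 2.33. It was also lost with slide and array position in the model (limma adjusted p = 0.0954) and, narrowly, without larval control replicate 3 (limma adjusted p = 0.0502).

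FBtr0071698 went in opposite directions at the 2 stages. It read 8.35, 8.12, 9.14, 8.65 and 8.76 in pupal controls and 6.19, 6.12, 6.43, 5.95 and 6.20 in pupal Tkv wings, a difference of -2.43 ± 0.22 (limma adjusted p = 6.63e-07). In larvae it rose from 5.37 ± 0.35 to 7.89 ± 0.49 (mean ± SD, n = 5), by 2.52 ± 0.22 (limma adjusted p = 6.74e-07). All larval arrays and all pupal Tkv arrays lay in the dim mode, as did pupal controls 1 and 2. The sizes of both differences may therefore be compressed, which was not tested. The ID of this transcript is consecutive with that of FBtr0071697, which rose at both stages, and the files do not say whether they belong to 1 gene.

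FBtr0081578 rose at both stages but by less in pupae, from 12.65, 12.91, 12.62, 13.00 and 12.24 in controls to 13.98, 13.88, 13.84, 13.97 and 13.72 in Tkv wings. The pupal difference was 1.20 ± 0.15 (limma adjusted p = 5.06e-05) and the larval one 4.23 ± 0.15, from a larval control level of 8.97 ± 0.30 (mean ± SD, n = 5). Pupal controls without the transgene were thus almost as high as larval Tkv wings, at 13.20 ± 0.20.

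None of the 17 transcripts with a single gene symbol passed the pupal test (limma), beside 3.16% over the whole array. An unadjusted p under 0.05 was reached by 2, beside 13.3% over the whole array. With 17 transcripts neither count sets them apart from the rest. Their median difference was -0.08 and the median size 0.11, beside 0.15 over all transcripts, with a median standard error of 0.15. Of the 17, 14 were bright on all 10 pupal arrays and 1 was dim on all 10.

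Fatp1, a fatty acid transport protein, came closest. It read 11.40, 11.57, 11.07, 11.24 and 11.34 in pupal controls and 10.43, 11.06, 10.96, 11.06 and 10.97 in Tkv wings, where replicate 1 was the lowest. It was the 1 named transcript whose groups did not overlap. Over all transcripts 4.46% did not overlap, so 1 among so few does not set the named ones apart. The Fatp1 difference was -0.43 ± 0.12 (SE, limma adjusted p = 0.0693) and had the same sign on 5 slides. At a threshold of 0.05 Fatp1 passed in 2 of 39 alternatives. These were without pupal control replicate 3 (limma adjusted p = 0.0474) and without the dimmest 25% of transcripts (limma adjusted p = 0.0467). It also passed where the threshold was raised to 0.10. Over all 39 the limma adjusted p ran up to 0.243, where all arrays of replicate 1 were left out and the difference was -0.29.

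NaPi-III, of a family of sodium-dependent phosphate transporters, read 8.34, 7.73, 7.70, 7.79 and 7.61 in controls and 8.66, 7.50, 8.37, 8.48 and 9.24 in Tkv wings. Tkv replicate 2 lay below every control and the other 4 above every control. The difference was 0.61 ± 0.23 (limma adjusted p = 0.204), and without Tkv replicate 2 it was 0.85 and passed (limma adjusted p = 0.0140). It passed in 4 of 39 alternatives, all of which left out or reweighted that array. Slide 5 had the largest difference, 1.62, and without all arrays of replicate 5 it was 0.36 (limma adjusted p = 0.631), the smallest of all alternatives.

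Among genes with a role near signalling or ubiquitin, rdx, an adaptor of a Cullin-3 ubiquitin ligase that limits Hedgehog signalling, differed by -0.18 ± 0.10 (limma adjusted p = 0.476). Uba1, the ubiquitin-activating enzyme, differed by 0.07 ± 0.09, and the kinase gene Dyrk3 by -0.22 ± 0.15. The TOR pathway regulators Wdr24 and mio, both of the GATOR2 complex, differed by -0.07 ± 0.15 and -0.08 ± 0.13.

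Of genes that act on chromatin, 4 had a symbol, and none of these 4 passed, beside 3.16% of all transcripts. So few do not differ from that share. SuUR, which suppresses replication of heterochromatin in polytene chromosomes, differed by -0.25 ± 0.16, the chromatin remodeller kis by -0.13 ± 0.17 and the histone deacetylase HDAC3 by 0.05 ± 0.09. His4r, a histone H4 gene, differed by -0.08 ± 0.24, with Tkv replicate 4 at 9.84 against 10.54 to 11.23 in the other 4 Tkv arrays.

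LanA, which encodes a chain of laminin, differed by -0.08 ± 0.25. It read 11.46, 10.55, 11.26, 12.19 and 11.20 in Tkv wings, a range that took in that of the controls, 11.00 to 11.81. Alpha-Spec, the alpha chain of the spectrin membrane skeleton, differed by -0.04 ± 0.12. These 2 were the only members of the adhesion and basement membrane list with a symbol. Neither passed, beside 3.16% of all transcripts.

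The remaining transcripts with a symbol were sle, a nucleolar protein gene, at 0.16 ± 0.13, fend at -0.09 ± 0.18, CG16974 at -0.11 ± 0.15 and CG31178, the dim one, at -0.16 ± 0.22. A further 27 transcripts carried the IDs of several RefSeq genes and were not named. Their pupal differences ran from -0.28 to 0.37. None passed (limma, lowest adjusted p = 0.377), beside 3.16% of all transcripts, and none had an unadjusted p under 0.05, beside 13.3%.

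**Figure D5:**
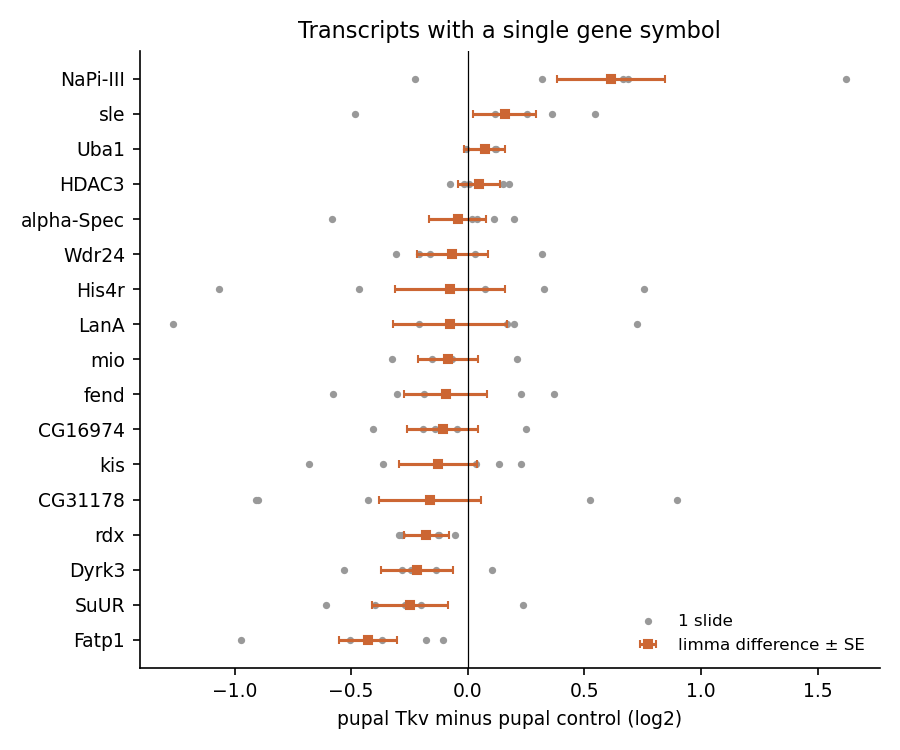
For each of the 17 transcripts with a single gene symbol, grey points give the pupal Tkv minus control difference (log2) on each of 5 slides and the orange square the limma difference ± SE. Differences run from -0.43 for Fatp1 to 0.61 for NaPi-III, and slide values lie on both sides of 0 for all but Fatp1 and rdx.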

How the data were processed

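Per the submitters' processing notes, RMA made the deposited values. The authors deposited an intensity per transcript and array on a linear scale (12.2 to 62182), and a series table of its log2 values, equal to within 5.0e-09. A deposited score between 0 and 1, headed as an error, was used only to count zeros. The sources used here give no RMA version, setting or genome build.

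Log2 intensities were quantile-normalized over 20 arrays. This hides a shift of all transcripts in 1 direction. Tests used limma 3.58.1 in R 4.3.3 (4 group means, 16 residual degrees of freedom, eBayes, two-sided, adjusted p under 0.05 over 15473 transcripts, no filter) and were tested on simulated data. The simulated noise was independent between arrays, without slide effects or outlying arrays, so the simulation does not cover those. Tables were read with jsonlite 2.0.0. Figures were drawn with matplotlib 3.10.9. The dim boundary is the lowest density between the modes (bandwidth 0.4). No depth applies to arrays; their number limits precision. The labels speak of separately isolated samples, and p-values cover only the spread among these samples.

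IDs given are the 2 largest rises and falls of same sign on all 5 slides, those among transcripts bright on all 10 pupal arrays, and the 2 largest stage differences in each direction among pupal calls. Slides were read from file names. The members, lists, rules and alternatives were chosen with earlier results of these data known. Of 44 IDs found in RefSeq synonyms, 17 gave a single symbol. The gene lists were meant for more symbols than the 17 found, so all 17 transcripts were described instead. None of the 14 lists had over 2 named members.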

Additional observations from a re-analysis of the deposited data

Results flagged for a closer look

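Of 64 sets of 5 replicate arrays, 7 held a single value well apart from the rest. By chance about 1 in 20 such sets would, a rate that is not meant for counts of zeros. FBtr0086927 read 6.35 in pupal control replicate 4, with the next value at 5.36. Fatp1 read 10.43 in pupal Tkv replicate 1, with the next at 10.96. NaPi-III read 8.34 in pupal control replicate 1, with the next at 7.79. Replicate 2 of the pupal Tkv wings had a low deposited median of 9.19 and a wide deviation of 0.464 (SD over transcripts, log2). Zeros in the deposited error column numbered 53 in pupal control replicate 2 and 7 in pupal Tkv replicate 4.

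For 87 pupal calls the response of the pupal wing differed from the larval one (limma interaction). The pupal minus larval response was 3.63 for FBtr0071612, 2.84 for FBtr0086927, -4.95 for FBtr0071698 and -3.03 for FBtr0081578 (log2).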

How the results depend on the processing

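The pupal count of 489 was 286 with normalization and fit of the pupal arrays alone and 289 with the fit alone, where fewer arrays estimate the spread. It was 254 and 752 at thresholds of 0.01 and 0.10. Leaving out 1 array or 1 replicate number gave 266 to 578, the highest without larval Tkv replicate 1. The interaction count of 105 was 66 with slide and array position in the model and 51 at a threshold of 0.01, and 48 to 107 with 1 array or replicate number left out. The deviations of same-numbered pupal arrays had correlations of -0.19 to 0.17, and not every array matched its own number best. Whether such arrays share more than a slide and a number was not tested. With slide as a fixed block, 600 transcripts passed in pupal wings and 124 for the interaction, and as a random block 641 and 141. Other settings kept both counts within 1.5 times, and the 489 calls kept their direction in every alternative that tested them. In many of these the direction could not change. Slide blocks, other thresholds, leaving out the dimmest transcripts and the fit of the pupal arrays alone leave the difference itself as it was. Leaving out a larval array barely moves it. The 12 transcripts given by ID passed the pupal test in all 39 alternatives. Array weights, the 2 pupal arrays with the largest spread and single larval arrays were left out or weighted after seeing the data. Levels near the dim mode limit what can be seen.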

Other observations

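Transcripts read by 5 probe pairs passed the pupal test more often than those read by 4, at 3.41% of 10111 against 2.69% of 5359. The 2 sets also differed in level, with 45.5% and 59.6% bright on all 10 pupal arrays. The spread of replicates was alike in both pupal groups, with a median SD per transcript of 0.26 in controls and 0.27 in Tkv wings, and 0.18 and 0.17 among transcripts bright on all 10 pupal arrays.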
